A study of Mus musculus with 13 samples.

Results

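The 7 genes described here encode ion channels that microglia, the resident macrophages of the brain, are known for: the potassium channels Kcnk13, Kcnk6, Kcnj2, Kcnn4 and Kcna3, the proton channel Hvcn1 and the cation channel Trpv2. They were taken by name from a table of 55487 genes, in which each of the 7 symbols matched 1 row. The genes were selected on their known roles, by someone who had seen their MIA and CON levels and fold changes in these libraries, so the difference between the groups is given here as a description and supports nothing beyond it. RNA was sequenced in bulk from cells that carry CD11b, a surface protein of microglia and other myeloid cells. The cells were captured on magnetic columns from dissociated brains of mouse pups, without perfusion and with the meninges taken off. Sample titles put the pups at postnatal day 4, and the series text spans days 3 to 5. The groups are MIA, offspring exposed before birth to maternal immune activation, and CON, control offspring, with 5 retained libraries each. Another 3 libraries, MIA 6, MIA 7 and CON 6, carry titles that mark them as excluded. Strain, sex and the agent given to the dams are not stated in the labels. The labels do not say whether libraries came from separate litters. The p-values set the group difference against the spread between these libraries, and may be too small if libraries share litters.

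Microglia hold their resting membrane potential with potassium channels, and that potential sets how they extend processes, take up calcium and release interleukin-1 beta. In rodent microglia the two-pore channel THIK-1, encoded by Kcnk13, carries the tonic potassium current, which ATP acting on the receptor P2RY12 increases. Potassium leaving the cell is a trigger of the NLRP3 inflammasome, a protein platform that activates caspase-1. The proton channel lets protons out of phagocytes while the NADPH oxidase moves electrons across the membrane, so the oxidase can keep working.

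The 4 abundant channels, Kcnk13, Kcnk6, Hvcn1 and Trpv2, were lower in MIA libraries by a similar proportion, to between 0.622 and 0.672 of the CON level. Kcnj2 was 1.46-fold higher in MIA and did not pass the test over all genes, and Kcnn4 and Kcna3 were scarce in both groups. Of the 6 genes with enough counts to be tested, 4 passed as lower and 0 as higher in MIA at a Benjamini-Hochberg adjusted p of 0.05 over 15511 genes (edgeR quasi-likelihood test), where 10.3% of all genes passed, 4.58% as lower and 5.75% as higher. Kcna3 fell below the low-count filter. The median log2 fold change of the 6 genes was -0.58, against -0.01 over all genes tested. In the same 4 genes the 5 MIA libraries lay below the 5 CON libraries, as they did in 4.36% of all genes tested; in 5.59% the MIA libraries all lay above. Since the genes were chosen with this contrast known, these shares are printed for scale only.

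These falls were similar in size to those of microglial marker genes. Of 16 such markers, 15 passed as lower and none as higher, with a median log2 fold change of -0.54. For the scale of this and the next marker lists, 4.58% of all genes tested passed as lower and 5.75% as higher. Their summed level was 18130 to 23404 CPM (counts scaled to a common library size with TMM factors, written CPM throughout) in MIA and 27659 to 35849 CPM in CON. Csf1r, the receptor that microglia need to survive, averaged 4740 ± 467 CPM in MIA and 6943 ± 781 CPM in CON (SD, n = 5 each). The 10 endothelial markers all passed as higher, and their summed level was 2634 to 4434 CPM in MIA against 874 to 1454 CPM in CON. Of 10 neuronal markers 6 passed as higher, with sums of 117 to 170 CPM in MIA and 62.2 to 82.7 CPM in CON. Neutrophil and monocyte markers summed to 104 to 145 CPM in MIA and 159 to 277 CPM in CON, and 1 of the 9 tested passed, as lower. It was Csf3r, the most abundant of the list, at 73.2 ± 7.18 CPM in MIA and 114 ± 18.9 CPM in CON (log2 fold change -0.64). Csf3r alone thus holds a large part of these sums. The rest of the tested genes did not pass, with log2 fold changes from -1.47 for Ly6c2 to 0.03 for Ltf. These genes were named after their values were seen. Of 10 mural and fibroblast markers 3 passed as higher, with sums of 878 to 1239 CPM in MIA and 628 to 986 CPM in CON, and of 7 oligodendrocyte lineage markers 1 passed as higher. None of 7 astrocyte markers passed. Of 9 T and B lymphocyte markers 4 were tested and 1 passed, as lower: Cd79b, named after its values were seen. Markers of border-associated macrophages, which also carry CD11b, had a median log2 fold change of 0.01 and sums of 855 to 2297 CPM in MIA and 1377 to 2199 CPM in CON. No marker was at 0 in all libraries, and the part of these cell types in the channel levels was not tested. In bulk RNA, fewer cells of a type and less RNA per cell cannot be told apart.

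The depth of the 13 libraries ran from 25387030 to 35593505 counts. Retained MIA libraries held 27563233 ± 1962079 counts and retained CON libraries 31836794 ± 3307858 (SD, n = 5 each; 2-sided exact permutation p = 0.0476). In the retained libraries CON 1 and CON 2 the 13 immediate early and dissociation genes summed to 2721 and 2522 CPM, and the 7 erythroid genes to 61.4 and 80.3 CPM. The other 11 libraries had 6699 to 11051 CPM of the first list and 1163 to 3055 CPM of the second, so results below are also given without these libraries where that matters.

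The start regions of Kcnk13 and Trpv2, which were lower in MIA, and of Kcnj2, the gene with the opposite sign, are shown for comparison. RefSeq windows from 250 bases before to 50 bases after the start (GRCm38.p6) were matched for 5 of the 7 genes, all but Kcnk6 and Hvcn1. Each is written 5′ to 3′ on the strand of the gene, with capitals for matches to GAGGAAGT (the site type of PU.1, the master regulator of myeloid cells), TGANTCA (AP-1 type), GGGCGG (SP/KLF type), or to GAAA repeated after any pair of bases (interferon type) or CTA followed after any 4 bases by TAG (MEF2 type), searched on both strands. The Kcnk13 window is chr12:99964249-99964548 (plus strand), the first of the Trpv2 windows chr11:62574236-62574535 (plus strand) and the Kcnj2 window chr11:111065914-111066213 (plus strand).
Kcnk13: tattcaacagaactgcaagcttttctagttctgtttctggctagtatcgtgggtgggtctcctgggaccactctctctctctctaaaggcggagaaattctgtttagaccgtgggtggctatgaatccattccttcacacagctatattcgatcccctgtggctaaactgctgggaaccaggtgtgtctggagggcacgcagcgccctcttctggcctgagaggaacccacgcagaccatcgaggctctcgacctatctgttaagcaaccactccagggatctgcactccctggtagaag
Trpv2: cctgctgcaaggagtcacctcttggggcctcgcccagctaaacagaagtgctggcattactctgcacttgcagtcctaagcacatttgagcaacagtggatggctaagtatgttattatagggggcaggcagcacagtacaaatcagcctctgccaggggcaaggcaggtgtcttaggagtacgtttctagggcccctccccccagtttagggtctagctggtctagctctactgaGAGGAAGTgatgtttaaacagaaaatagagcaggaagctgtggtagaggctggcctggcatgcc
Kcnj2: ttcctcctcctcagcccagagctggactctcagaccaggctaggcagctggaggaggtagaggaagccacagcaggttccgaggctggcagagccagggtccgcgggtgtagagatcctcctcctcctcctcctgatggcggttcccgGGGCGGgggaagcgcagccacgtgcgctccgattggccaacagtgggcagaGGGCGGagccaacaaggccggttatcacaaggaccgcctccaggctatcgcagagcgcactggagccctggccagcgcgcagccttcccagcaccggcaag
The Trpv2 window holds 1 match to the PU.1-type letters, whose first base is at position -14 from the start. The second of the 3 Trpv2 windows overlaps it and holds the same letters, and the third holds none. Of 32851 RefSeq windows of this length, 3.2% hold these letters. The Kcnk13 window has 0 matches to any of the 5 motifs. The Kcnj2 window has 2 matches to GGGCGG, letters present in 35.7% of windows. The windows of Kcnn4 and Kcna3 had 1 and 2 matches to GGGCGG and none to the other 4 motifs. AP-1-type letters occur in 7.81%, interferon-type in 3.44% and MEF2-type in 3.69% of all windows. A match is only a run of letters, and binding was not measured here.

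Kcnk13, the THIK-1 gene, had 54.9, 51.4, 60.8, 50.8 and 45.9 CPM in MIA 1 to MIA 5, against 79.4, 98.6, 87.1, 69.8 and 88.9 CPM in CON 1 to CON 5. Every retained MIA library lay below every retained CON library. The means were 52.7 ± 5.52 CPM in MIA and 84.8 ± 10.8 CPM in CON (SD, n = 5 each). The log2 fold change was -0.68 ± 0.10 (SE; 95% confidence interval -0.91 to -0.46; edgeR adjusted p = 0.00106), the largest fall among the 6 tested genes. Of the excluded libraries, MIA 6 (63.1 CPM) lay between the retained groups, MIA 7 (57.3 CPM) within the MIA range and CON 6 (70.5 CPM) at the low end of the CON range. Over all 13 libraries the log2 fold change was -0.59 (edgeR adjusted p = 0.0194).

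Kcnk6 encodes TWIK-2, a two-pore potassium channel that in mouse macrophages carries potassium out of the cell when ATP opens the receptor P2RX7. It had 44.7, 40.2, 34.9, 37.7 and 34.9 CPM in MIA 1 to MIA 5, against 60.6, 76.6, 55.7, 48.9 and 45.6 CPM in CON 1 to CON 5. The groups did not overlap, but the highest MIA library and the lowest CON library were close. CON 1 and CON 2 were the highest CON libraries for this gene. The log2 fold change was -0.58 ± 0.13 (SE; 95% confidence interval -0.87 to -0.29; edgeR adjusted p = 0.0142). Without CON 1 and CON 2 the Kcnk6 value was -0.39 (edgeR adjusted p = 0.0328). The excluded libraries went the other way, with 45.4 CPM in MIA 6 and 51.4 CPM in MIA 7 against 37.9 CPM in CON 6. With all 13 libraries the log2 fold change was -0.39 and the call was lost (edgeR adjusted p = 0.126).

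Hvcn1 encodes the voltage-gated proton channel. Its transcript had 80.7, 75.7, 89.5, 65.7 and 66.4 CPM in MIA 1 to MIA 5, against 104, 121, 115, 102 and 127 CPM in CON 1 to CON 5. The groups were apart, and the spread within each was small, at 75.6 ± 10.0 CPM in MIA and 114 ± 10.5 CPM in CON (SD, n = 5 each). The log2 fold change was -0.59 ± 0.10 (SE; 95% confidence interval -0.80 to -0.38; edgeR adjusted p = 0.00207). The excluded MIA 6 and MIA 7 had 103 and 96.7 CPM and the excluded CON 6 had 89.9 CPM, so CON 6 was the lowest of these 3. The log2 fold change was -0.41 in the 13-library fit (edgeR adjusted p = 0.0476). In the GENCODE M21 annotation 1574 bases of Hvcn1 exons overlap exons of Tctn1 on the opposite strand, and these libraries do not mark the strand. Tctn1 itself was assigned 130 to 320 counts per library and Hvcn1 1748 to 4006.

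Trpv2 encodes a calcium-permeable cation channel that in mouse macrophages takes part in phagocytosis. It had 43.8, 47.7, 50.2, 39.6 and 39.8 CPM in MIA 1 to MIA 5, against 57.8, 64.2, 75.2, 69.3 and 62.4 CPM in CON 1 to CON 5. No MIA library reached the lowest CON library. Its log2 fold change was -0.57 ± 0.10 (SE; 95% confidence interval -0.78 to -0.36; edgeR adjusted p = 0.00220). The excluded libraries had 58.5 CPM in MIA 6, 56.2 CPM in MIA 7 and 51.5 CPM in CON 6, again with CON 6 lowest. Fitting all 13 libraries gave a log2 fold change of -0.40 for Trpv2 (edgeR adjusted p = 0.0475).

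Kcnj2 encodes an inward rectifier, a potassium channel that passes current more easily into the cell than out of it and is found in microglia and in brain endothelium. It was the one gene of the 7 with a higher mean in MIA. It had 10.0, 7.17, 10.1, 10.4 and 9.29 CPM in MIA 1 to MIA 5, against 5.25, 7.14, 4.58, 7.69 and 7.61 CPM in CON 1 to CON 5. In MIA 2 it lay within the CON range, and in the other 4 MIA libraries above it. The log2 fold change was 0.54 ± 0.19 (SE; 95% confidence interval 0.13 to 0.95) and did not pass (edgeR adjusted p = 0.0955; unadjusted p = 0.0137). Among the excluded libraries, MIA 6 had 7.11, MIA 7 13.6 and CON 6 9.73 CPM. The endothelial marker sum was 2778 CPM in CON 6, the most of the CON libraries, and 2206 and 2426 CPM in MIA 6 and MIA 7. Retained MIA libraries had sums of 2634 to 4434 CPM and retained CON libraries 874 to 1454 CPM. Among the 13 libraries, MIA 3 had the highest sum and MIA 7 the highest Kcnj2 level. The part of endothelial RNA in the Kcnj2 level was not tested.

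Kcnn4, the calcium-activated potassium channel of immune cells and red blood cells, was scarce. It had 1.79, 1.40, 3.81, 2.18 and 1.70 CPM in MIA 1 to MIA 5, against 3.52, 2.59, 2.97, 2.77 and 2.78 CPM in CON 1 to CON 5. MIA 3 was above all CON libraries and the other 4 MIA libraries were below all of them. Its log2 fold change was -0.43 ± 0.31 (SE; 95% confidence interval -1.10 to 0.24; edgeR adjusted p = 0.469). Without MIA 3 it was -0.73, still short of the threshold (edgeR adjusted p = 0.142). The excluded MIA 6 and MIA 7 were far apart, at 4.34 and 1.75 CPM, with CON 6 at 3.19 CPM.

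Kcna3, the voltage-gated potassium channel best known from T lymphocytes, was close to the limit of detection. Its counts were 8, 2, 0, 3 and 2 in MIA 1 to MIA 5, against 11, 3, 16, 6 and 21 in CON 1 to CON 5. The groups overlapped, and the counts were too few for the test, so no fold change is given from it. A library with 0 counts allows up to 3 counts, which equals 0.0875 to 0.117 CPM at these depths; this limit covers counting error only. The excluded libraries had 14, 8 and 0 counts in MIA 6, MIA 7 and CON 6. The T cell genes Cd3e and Cd3g each had 0 to 6 counts per library, Cd3d 0 to 4, Cd2 0 to 17 and Lck 0 to 31.

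**Figure D1:**
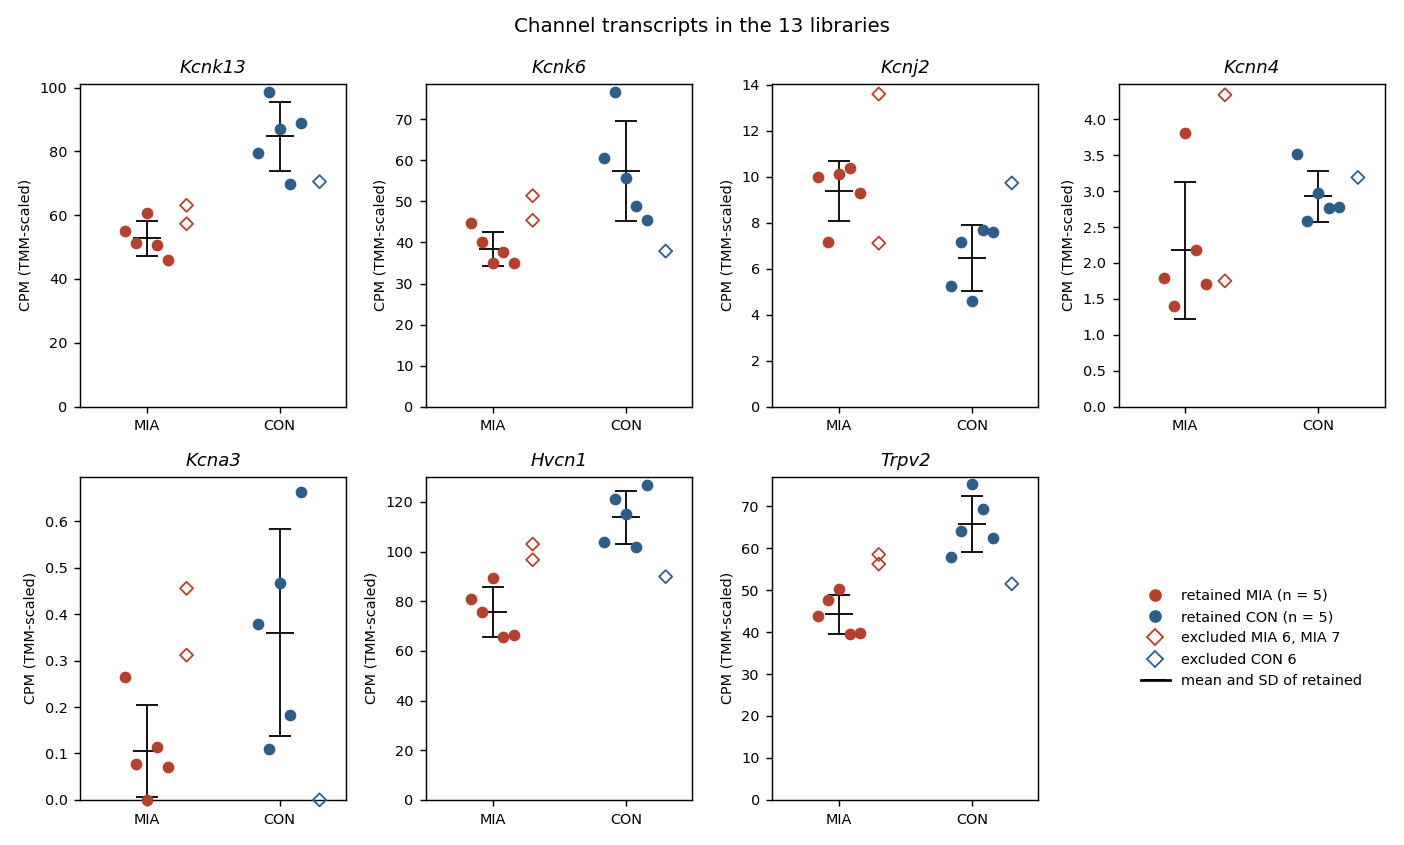
Level of each channel gene in CPM (TMM-scaled, y axis from 0) in MIA and CON libraries; dots are the 5 retained libraries per group, open diamonds the 3 excluded ones, and black bars the mean and SD of the retained libraries. Kcnk13, Kcnk6, Hvcn1 and Trpv2 show no overlap between retained groups, while the CON 6 diamond lies below both MIA diamonds for Kcnk6, Hvcn1 and Trpv2.

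Per kilobase of exon, the order of the levels was the same in both groups. Hvcn1 led with 21.2 ± 2.81 CPM per kilobase in MIA and 31.9 ± 2.94 in CON (SD, n = 5 each), followed by Kcnk13 with 16.9 ± 1.77 in MIA and 27.2 ± 3.47 in CON. The ranges of these genes overlapped within each group. Trpv2, with 9.86 ± 1.06 in MIA and 14.7 ± 1.49 in CON, and Kcnk6, with 9.27 ± 0.991 in MIA and 13.9 ± 2.93 in CON, overlapped as well. Kcnj2 was far lower, at 1.73 ± 0.241 in MIA and 1.19 ± 0.265 in CON. Kcnn4 followed with 0.425 ± 0.187 in MIA and 0.572 ± 0.0705 in CON, and Kcna3 came last, at 0.0553 ± 0.0517 in MIA and 0.189 ± 0.117 in CON, both without overlap with the gene before. Among all tested genes, Hvcn1 stood at the 90.9th and Kcnk13 at the 89.5th percentile of the per-kilobase level in CON, Kcnj2 at the 33rd and Kcnn4 at the 21.7th. Exon lengths come from GENCODE M21 and join the exons of all transcripts, so a gene with a long, rarely used exon appears lower.

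Set against the microglia markers of the same library, the mean levels of the 4 falling channels differed between the groups by less than the SD of the MIA libraries. The log2 CPM of Hvcn1 minus the mean log2 CPM of the 16 markers was -3.16 ± 0.11 in MIA and -3.11 ± 0.11 in CON (SD, n = 5 each). For Trpv2 this value was -3.93 ± 0.10 in MIA and -3.90 ± 0.21 in CON, and for Kcnk6 -4.13 ± 0.18 in MIA and -4.12 ± 0.21 in CON. Kcnk13 kept the largest gap, with -3.68 ± 0.15 in MIA and -3.54 ± 0.07 in CON. Its difference, -0.14, was larger than the SD of the CON libraries, though the groups overlapped. The excluded libraries kept that order, with -3.75 in MIA 6, -3.93 in MIA 7 and -3.45 in CON 6. Kcnj2 was the exception, with -6.17 ± 0.35 in MIA and -7.26 ± 0.36 in CON. Its retained MIA libraries, from -6.72 to -5.78, all lay above the retained CON libraries, from -7.72 to -6.83. The excluded libraries reversed that order in part, with -6.89 in MIA 6, -6.00 in MIA 7 and -6.30 in CON 6.

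**Figure D2:**
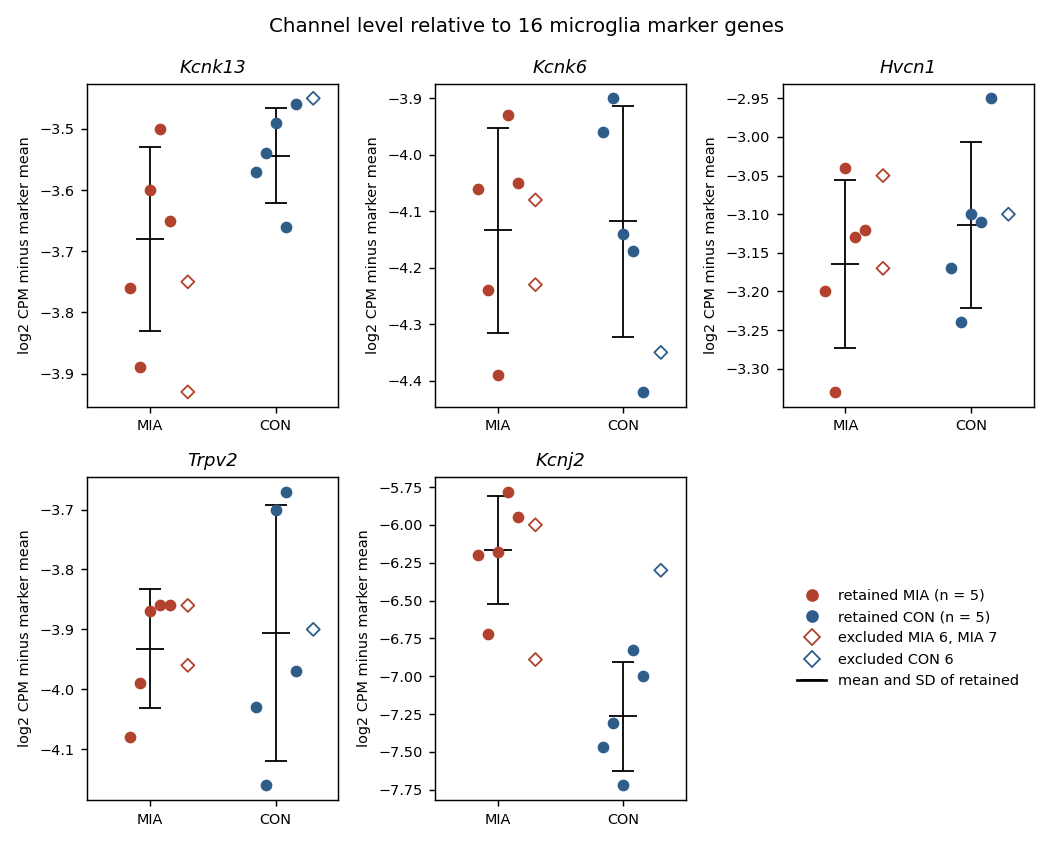
Log2 CPM of 5 channel genes minus the mean log2 CPM of 16 microglia marker genes in the same library (y axis, log2 units, own range per panel); dots are retained libraries, open diamonds excluded ones, black bars mean and SD of the retained libraries. The groups overlap for Kcnk13, Kcnk6, Hvcn1 and Trpv2, and the retained groups are apart for Kcnj2.

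Scaling libraries to the summed counts of these 16 markers in place of TMM repeats this comparison in the fit over all genes. It uses the same markers, so it adds no separate evidence. That scaling moved the median log2 fold change of all genes to 0.54, against -0.01 with TMM. The log2 fold changes were then -0.13 for Kcnk13 (edgeR adjusted p = 0.291), -0.02 for Kcnk6 (0.910), -0.05 for Hvcn1 (0.682) and -0.04 for Trpv2 (0.804), and none of the 4 passed. Kcnj2 was at 1.10 and passed (edgeR adjusted p = 0.00242), and it was 1 of 7792 genes called higher under this scaling, with 3 called lower. Excluded MIA 6 and MIA 7 had marker sums of 26656 and 27381 CPM, and CON 6 had 24284 CPM. In TMM-scaled CPM, MIA 6 and MIA 7 were above CON 6 in Kcnk6, Hvcn1 and Trpv2 and below it in Kcnk13. The part of marker RNA in these levels was not tested.

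**Figure D3:**
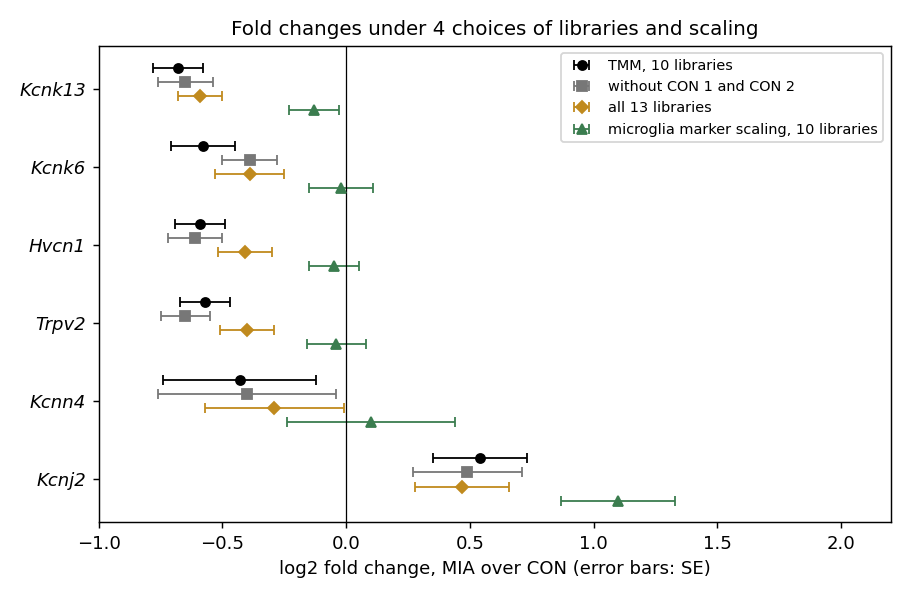
Log2 fold change of MIA over CON (x axis, with SE bars) for the 6 tested channel genes under 4 choices: TMM on the 10 retained libraries, the same without CON 1 and CON 2, all 13 libraries, and scaling to microglia markers. Under marker scaling the 4 falling genes sit between -0.13 and -0.02 and Kcnj2 at 1.10.

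The genes whose level across the 13 libraries most resembled each channel were found by Pearson correlation of log2 CPM among 10184 candidate genes (10185 for Kcnn4 and Kcna3), as a description of libraries that share group and cell composition. Hvcn1 ran closest to Plxdc2 (r = 0.98), Ang (0.97) and Itgb2 (0.97), the last of which encodes the integrin chain that pairs with CD11b. Trpv2 ran closest to Coro1a (0.98), Khk (0.97) and Nckap1l (0.96), of which Coro1a and Nckap1l encode actin regulators of blood cells. Kcnk13 resembled Crat (0.96), Slc38a7 (0.95) and Sirpa (0.94), the receptor gene for the signal CD47. Kcnk6 resembled Zfp715 (0.97), N4bp2l1 (0.96) and Tubgcp5 (0.96).

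Kcnj2 showed looser likeness and to other kinds of gene: Kitl (r = 0.87), the gene of stem cell factor, Tmem123 (0.86) and Cobll1 (0.86). For Kcnn4 the nearest were Tor2a (0.81), Man1b1 (0.80) and Inafm1 (0.80), and for Kcna3 Ap1b1 (0.84), Ghdc (0.83) and Polg2 (0.83), both from few counts. Over the 11 libraries without CON 1 and CON 2 these values ran from 0.78 to 0.99.

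Other potassium channels were mostly scarce. For the scale of this and the following lists, 10.3% of all genes tested passed in edgeR, 5.75% as higher and 4.58% as lower. Of 12 other two-pore genes 5 could be tested, and 1 rose: Kcnk5, an acid- and volume-sensitive channel, at 6.17 ± 2.25 CPM in MIA and 2.97 ± 0.688 CPM in CON (log2 fold change 1.06 ± 0.29, SE; edgeR adjusted p = 0.0360). That call was lost in 9 of 19 other fits, with an adjusted p of up to 0.153. Kcnk12, which encodes the THIK-2 relative of the Kcnk13 product, was level at 10.5 ± 4.98 CPM in MIA and 10.5 ± 6.47 CPM in CON, and Kcnk1 was at 9.80 ± 5.85 CPM in MIA and 7.69 ± 7.18 CPM in CON (SD, n = 5 each). The median log2 fold change of the 5 genes was 0.35.

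Among 16 other inward rectifiers and their sulfonylurea receptors, 9 were tested and 0 passed in edgeR, DESeq2 or limma-voom, with 0 at an unadjusted p under 0.05 in edgeR. Kcnj8 and Abcc9, the pore and receptor of the ATP-sensitive channel of pericytes, were at 29.5 ± 8.42 and 23.3 ± 5.18 CPM in MIA, against 22.4 ± 5.13 and 16.6 ± 5.74 CPM in CON (SD, n = 5 each). Kcnj13, which choroid plexus cells express, had a wide spread, with 52.7 ± 38.4 CPM in MIA and 28.2 ± 29.5 CPM in CON. Of 7 tested calcium- or sodium-activated channels, 0 passed in any of these tools and 0 had an unadjusted p under 0.05. Kcnn3, the most abundant, had a log2 fold change of -0.49 ± 0.45 (SE). Kcnmb1 and Kcnn2 were below 3 CPM on average in both groups.

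Of 47 other voltage-gated channel genes 25 were tested, with 3 higher, 1 lower and a median log2 fold change of 0.68. Over all genes tested 5.75% passed as higher and 4.58% as lower. Kcnq1, the slow delayed rectifier, rose to 10.6 ± 1.80 CPM in MIA, against 4.33 ± 1.69 CPM in CON (log2 fold change 1.29 ± 0.26, SE; edgeR adjusted p = 0.00630), with the groups apart; with all 13 libraries the call was lost (0.106). Kcna6, a shaker-type channel, and Kcne4, an accessory subunit that restrains such channels, rose by 1.10 ± 0.28 and 1.07 ± 0.32 (log2 units and SE; edgeR adjusted p = 0.0222 and 0.0490) but lost the call in 7 and 10 of 19 other fits (adjusted p up to 0.118 and 0.128). Kcnd1, an A-type channel gene, fell by 0.52 (log2 units, SE 0.14; edgeR adjusted p = 0.0364), was at 0.02 under marker scaling and did not pass in 9 of 20 other fits. The beta subunit Kcnab2 was at 7.48 ± 1.43 CPM in MIA and 10.7 ± 2.41 CPM in CON and did not pass. Kcne2, an accessory subunit of the choroid plexus, was at 43.4 ± 31.5 CPM in MIA and 29.2 ± 33.9 CPM in CON (SD, n = 5 each).

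Of 25 other TRP and mucolipin genes 16 were tested and 0 passed in edgeR (2 at an unadjusted p under 0.05, 1 in DESeq2 and 1 in limma-voom). Mcoln1, the lysosomal calcium channel, was at 60.5 ± 2.72 CPM in MIA and 68.1 ± 7.80 CPM in CON, and Trpm7, a channel with a kinase domain, at 30.7 ± 5.83 CPM in MIA and 35.6 ± 8.35 CPM in CON (SD, n = 5 each). Trpm3 was at 31.7 ± 22.8 CPM in MIA and 24.8 ± 30.0 CPM in CON. The 5 genes of store-operated calcium entry, which potassium channels help to drive by keeping the membrane negative, had a median log2 fold change of -0.21. None passed in edgeR, DESeq2 or limma-voom, with 2 at an unadjusted p under 0.05. Orai3 was at 59.7 ± 5.99 CPM in MIA and 69.1 ± 6.83 CPM in CON, Stim1 at 55.9 ± 6.16 CPM in MIA and 67.8 ± 11.9 CPM in CON, and Orai2 at 28.0 ± 4.94 CPM in MIA and 34.4 ± 10.4 CPM in CON.

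Chloride and volume-regulated channels went both ways, with 4 of 18 tested genes higher, 2 lower and a median log2 fold change of 0.02. Over all genes tested 5.75% passed as higher and 4.58% as lower. Clic4, an intracellular channel protein that endothelium also makes, rose by 0.76 ± 0.08 (SE; edgeR adjusted p = 0.000154), to 186 ± 14.7 CPM in MIA, against 110 ± 10.0 CPM in CON. Ttyh2 rose by 0.62 ± 0.11, and Lrrc8c and Lrrc8b, subunits of the volume-regulated anion channel, by 0.69 ± 0.15 and 0.64 ± 0.13 (SE; edgeR adjusted p = 0.00230, 0.0114 and 0.00809). The last pair did not pass with all 13 libraries (adjusted p = 0.0975 and 0.0570). Clcn7, the lysosomal chloride-proton exchanger, fell by 0.44 ± 0.09 (SE; edgeR adjusted p = 0.00753) and Clic1, which microglia express strongly, by 0.28 ± 0.07 (0.0270), to 342 ± 18.9 CPM in MIA, against 414 ± 31.0 CPM in CON. Under marker scaling Clic1 was at 0.27, and it lost its call in 10 of 20 other fits. Clcn7 was named after its values were seen.

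Most genes of the NADPH oxidase, whose charge movement the proton channel balances, were lower in MIA. Of its 7 genes 5 passed as lower and none as higher, with a median log2 fold change of -0.46. Of all genes tested, 4.58% passed as lower and 5.75% as higher. Cyba, a membrane subunit, was at 162 ± 15.7 CPM in MIA and 241 ± 31.2 CPM in CON (log2 fold change -0.57 ± 0.10, SE; edgeR adjusted p = 0.00257). The cytosolic subunits Ncf1 and Ncf4 fell by 0.45 ± 0.08 and 0.57 ± 0.12 on the log2 scale, and the GTPase Rac2 by 0.46 ± 0.08 (SE; edgeR adjusted p = 0.00227, 0.00713 and 0.00194). Rac1, which most cell types express, was at 850 ± 53.9 CPM in MIA and 875 ± 26.9 CPM in CON (SD, n = 5 each). Cybb did not pass (log2 fold change -0.49 ± 0.20, SE; edgeR adjusted p = 0.161) and was named after its values were seen. In the 13-library fit 2 of the 7 genes passed, and under marker scaling 0 were lower and 1, Rac1, was higher.

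Of 10 genes that link potassium efflux to the inflammasome, 4 passed as lower and 0 as higher, with a median log2 fold change of -0.27. Of all genes tested, 4.58% passed as lower and 5.75% as higher. P2rx7, the ATP-gated receptor that acts with the Kcnk6 channel in macrophages, fell by 0.47 (log2 units, SE 0.10; edgeR adjusted p = 0.00917), to 119 ± 10.5 CPM in MIA, against 166 ± 23.4 CPM in CON. Its relative P2rx4 fell by 0.43 ± 0.10 (0.0175) and the inflammasome adaptor Pycard by 0.51 ± 0.11 (0.0109). Il1b, the cytokine gene at the end of this path, was at 274 ± 66.6 CPM in MIA and 255 ± 204 CPM in CON, which put its log2 fold change at 0.11 (SE 0.70; edgeR adjusted p = 0.953). Without CON 1 and CON 2 Il1b was at -0.55 (0.0994). In the 13-library fit 1 of the 10 genes passed, and under marker scaling 3 were higher and 0 lower.

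**Figure D4:**
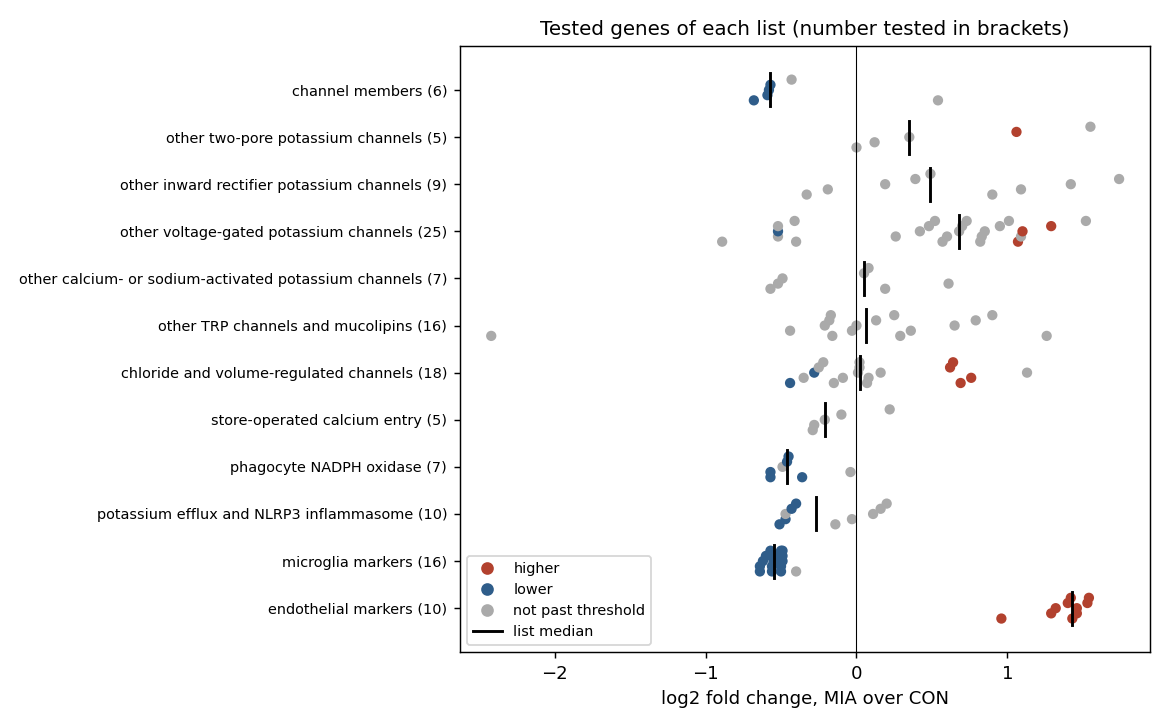
Log2 fold change of MIA over CON (x axis) for every tested gene of the channel and process lists and of 2 marker lists; each dot is a gene, red if it passed as higher in MIA, blue if lower and grey if it did not pass, and the black line is the list median. The channel genes, the NADPH oxidase and the microglia markers have medians of -0.58, -0.46 and -0.54, and the endothelial markers 1.42.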

How the data were processed

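The authors deposited 1 table of expected counts, estimated counts per gene that need not be whole, with no scaling between its 13 libraries. The submitters' processing notes name RSEM, STAR and DESeq2 without versions; neither build nor annotation is named there. Per the labels' protocols, RNA was primed on poly(A) tails in a modified Smart-Seq2 protocol and tagmented with a kit that does not mark strand. Columns were mapped to samples by the label names. Values were rounded to whole numbers (20.6% of nonzero ones were not whole), a shift of at most 0.5. Symbols were matched by Ensembl ID (55141 of 55487 genes).

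The test was the quasi-likelihood test of edgeR 4.0.16 under R 4.3.3, with TMM factors, the filterByExpr filter, robust dispersions and no covariate beside group, on 5 MIA and 5 CON libraries. P-values were adjusted by Benjamini-Hochberg over 15511 genes. The SE is the log2 fold change divided by the square root of F. CPM use TMM over 13 libraries; log2 CPM add a prior count of 2. Depth was 25387030 to 35593505 counts. The steps were tested on simulated data. Channel genes and gene lists were chosen with earlier results of these data known. Named genes were all 7 channels, up to 3 most abundant and up to 3 most changed called genes per list, and the 3 genes most like each channel among those averaging at least 5 CPM. Alternatives were a replicate block, other scalings and filters, DESeq2 1.42.0, limma-voom (limma 3.58.1), all 13 libraries, and leaving libraries out.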

Additional observations from a re-analysis of the deposited data

Results flagged for a closer look

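Clic1 in CON 1, at 360 CPM, was far below the other CON libraries, the nearest of which had 421 CPM. Stim1 in CON 1, at 88.9 CPM, and Orai2 in CON 1, at 52.6 CPM, were far above the other CON libraries, the nearest at 64.6 and 33.2 CPM. Kcna6 in CON 5 stood above the rest of its group, at 9.73 CPM against 5.46 CPM in the nearest library. Tubb3, a neuronal gene, stood above the rest of its group in MIA 2, at 57.8 CPM against 43.0 CPM. Of 104 sets of 5 libraries examined for the named genes, 5 held such a library, and 0 of these concerned the 7 channel genes. The sets reuse the same libraries and are not independent, so this share cannot be judged against chance.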

How the results depend on the processing

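The falls of Kcnk13, Hvcn1 and Trpv2 kept their direction and call under every choice tried except scaling to the microglia markers, and the fall of Kcnk6 except under that scaling and with all 13 libraries (-0.39). Under marker scaling the log2 fold changes were -0.13 for Kcnk13, -0.02 for Kcnk6, -0.05 for Hvcn1, -0.04 for Trpv2, 1.10 for Kcnj2 and, with the sign turned, 0.10 for Kcnn4, and 7795 genes passed (7792 higher, 3 lower) in place of 1602 (892 higher, 710 lower). Because the marker sums were lower in MIA, this scaling shifts the MIA over CON fold changes upward relative to TMM. It left 1 channel gene, 2 two-pore, 5 inward rectifier, 7 voltage-gated, 3 TRP, 13 chloride, 2 store-operated, 1 NADPH oxidase and 3 inflammasome genes called, all higher in MIA. Other signs it turned were those of Kcnd1 (0.02), Kcnab2 (0.07), Kcnn3 (0.11), Kcnn2 (0.06), Mcoln1 (0.39), Trpm7 (0.36), Clic1 (0.27), Orai3 (0.35), Stim1 (0.26), Orai2 (0.27), Rac1 (0.50), Rac2 (0.09), Ncf1 (0.08), Pycard (0.02), P2rx7 (0.09) and P2rx4 (0.12). Scaling to total counts put Rac1 at 0.02 and moved the called genes to 1036 higher and 496 lower. With all 13 libraries 659 genes passed (424 higher, 235 lower; 636 of them among the 1602), with 0 two-pore, 1 voltage-gated, 3 chloride, 2 NADPH oxidase and 1 inflammasome gene, and Kcnk12 was at -0.10. Without CON 1 and CON 2, 2 two-pore genes passed, and Kcnk12 (-0.35), Kcnn3 (0.39), Kcnmb1 (-0.24), Kcnn2 (0.83) and Il1b (-0.55) turned sign. The strict filter (10 CPM in 5 libraries) left 0 two-pore and 1 voltage-gated gene called, DESeq2 gave 2 two-pore genes and 1 TRP gene, and limma-voom 0 two-pore genes and 1 TRP gene, with Kcnn2 at 0.15. Without a filter Kcnk12 was at 0.00, and Kcna3 could be fitted, at -1.74 (edgeR adjusted p = 0.368). For changes other than those under marker scaling, the cause was not tested.

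Leaving out 1 retained library at a time gave log2 fold changes of -0.75 to -0.63 for Kcnk13, -0.65 to -0.46 for Kcnk6, -0.66 to -0.54 for Hvcn1, -0.62 to -0.52 for Trpv2, 0.44 to 0.62 for Kcnj2 and -0.73 to -0.31 for Kcnn4, with 4 channel genes called each time. All genes called ran from 1037 (without MIA 5) and 1057 (without MIA 4) to 2263. The calls ran from 0 to 2 for two-pore, 0 to 1 for inward rectifier, 1 to 5 for voltage-gated, 0 to 1 for TRP and 2 to 5 for inflammasome genes. Log2 fold changes ran from -0.23 to 0.33 for Kcnk12, -0.71 to 0.07 for Kcnn3, -0.02 to 0.69 for Kcnmb1, -0.81 to 0.29 for Kcnn2, -0.06 to 1.38 for Trpm3 and -0.17 to 0.48 for Il1b. Whether the replicate numbers pair the libraries was not settled. Deviations of same-numbered libraries correlated at 0.06 to 0.30, and only replicate 3 matched its own number best. Such weak positive values cannot decide it. A fit with the replicate number as a block gave -0.68 for Kcnk13 and called the same number of channel genes, 4, with 0 two-pore, 7 chloride, 4 NADPH oxidase and 3 inflammasome genes, against 1, 6, 5 and 4 without the block. The low-count filter kept Kcna3, with 0 to 21 counts per library, out of the test.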
